A study of Mus musculus with 8 samples.

Results

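The lineage transcription factors of dendritic cells considered here are 10 genes. Tcf4, Spib, Irf8, Runx2 and Bcl11a are factors of plasmacytoid dendritic cells (pDC). Id2, Zbtb46, Batf3, Irf4 and Relb are factors tied mainly to conventional dendritic cells (cDC). They were taken by gene name from the scanner files, where all 10 genes were found, among 36095 named features in all. They are covered by 15 of 55681 probes, and 9 of the 10 genes were bright enough to test, as were 19818 genes in all. Tcf4, Runx2, Bcl11a, Zbtb46 and Relb have a pair of probes each, and the brighter one over all 8 arrays is called the main probe.

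The arrays compared pDC sorted as Sca-1+ (4 samples) with pDC sorted as Sca-1- (4 samples). All 8 samples came from female BALB/c mice of an age not given, with no genetic change named, and in every sample bone marrow precursors had been differentiated in culture with the cytokine mFlt3-L before magnetic and flow cytometric sorting. The cells are therefore culture-grown, and nothing in the labels ties a replicate to a culture or animal of its own. The p-values below therefore cover the variation among these 8 arrays, part or all of which may be technical. The series asks whether Sca-1, a surface protein encoded by Ly6a, marks stages of pDC development that differ in their TLR9 response.

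pDC and cDC arise from related bone marrow precursors under Flt3 ligand. The E protein encoded by Tcf4 binds E-box sequences and holds the pDC fate, while the Id protein encoded by Id2 has no DNA-binding region of its own, pairs with E proteins and keeps them off DNA. In mice, loss of Tcf4 from mature pDC lets cDC features emerge, and Id2 is needed for the cDC subset that depends on Batf3. Zbtb46 is a repressor whose expression marks committed cDC and their precursors.

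Per array, 45.9% to 54.9% of spots were well above background, the scanner program's mark for a detected spot. A level below is the log2 processed signal minus the array's 75th percentile, so levels of different probes cannot be ranked against each other. Ly6a checked the sort, with a difference of 4.65. Both samples numbered 4 stood apart from the rest: their slide was scanned on another day with another protocol version. Clec9a, 1 of 14 listed cDC markers, was picked after its values were seen. It had a level of 0.093 in Sca-1+ replicate 4 and -0.0091 in Sca-1- replicate 4, against 2.72 to 3.85 in the other Sca-1+ and 2.18 to 3.37 in the other Sca-1- samples. Same-numbered samples shared a slide, so slide differences are given, and a fit blocked by slide stands beside the unpaired one. On every slide the Sca-1+ array lay at position 2 and the Sca-1- array at position 1, so position and group cannot be told apart. Siglech, which encodes a pDC surface lectin, lay at 8.32 to 9.67 in Sca-1+ and 8.09 to 9.33 in Sca-1- samples. As no other sorted cell type was on the arrays, these levels alone do not test the pDC label. Of 14 cDC markers, Xcr1 and Tlr3 were not well above background on any array, and the summed signal of the list, in multiples of the 75th percentile, was 156 to 173 in Sca-1+ and 154 to 173 in Sca-1- samples. In such bulk samples fewer cells of a type and less RNA per cell cannot be told apart.

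None of the 9 tested factor genes passed the unpaired limma test (0 of 9), whose adjusted p-values cover all tested genes and whose threshold was 0.05, and the same test called 1.71% of all tested genes (0.126% in the higher and 1.58% in the lower direction). Before adjustment 1 of the 9, Zbtb46, had a p below the threshold, as did 8.96% of tested genes. With the slide as a block, limma called 2 of the 9, Id2 higher and Zbtb46 lower in Sca-1+ pDC, against 6.22% of all tested genes (2.1% higher and 4.12% lower). The median difference of the 9 genes, Sca-1+ minus Sca-1-, was -0.0048, beside 0.029 over all tested genes, and the median absolute difference was 0.20 beside 0.15. By their main probes the 5 pDC factors differed by 0.20 or less in either direction, and the larger differences were those of Zbtb46, Irf4, Id2 and Relb. The calls of Id2 and Zbtb46 are described first, and then the other members by role.

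**Figure D1:**
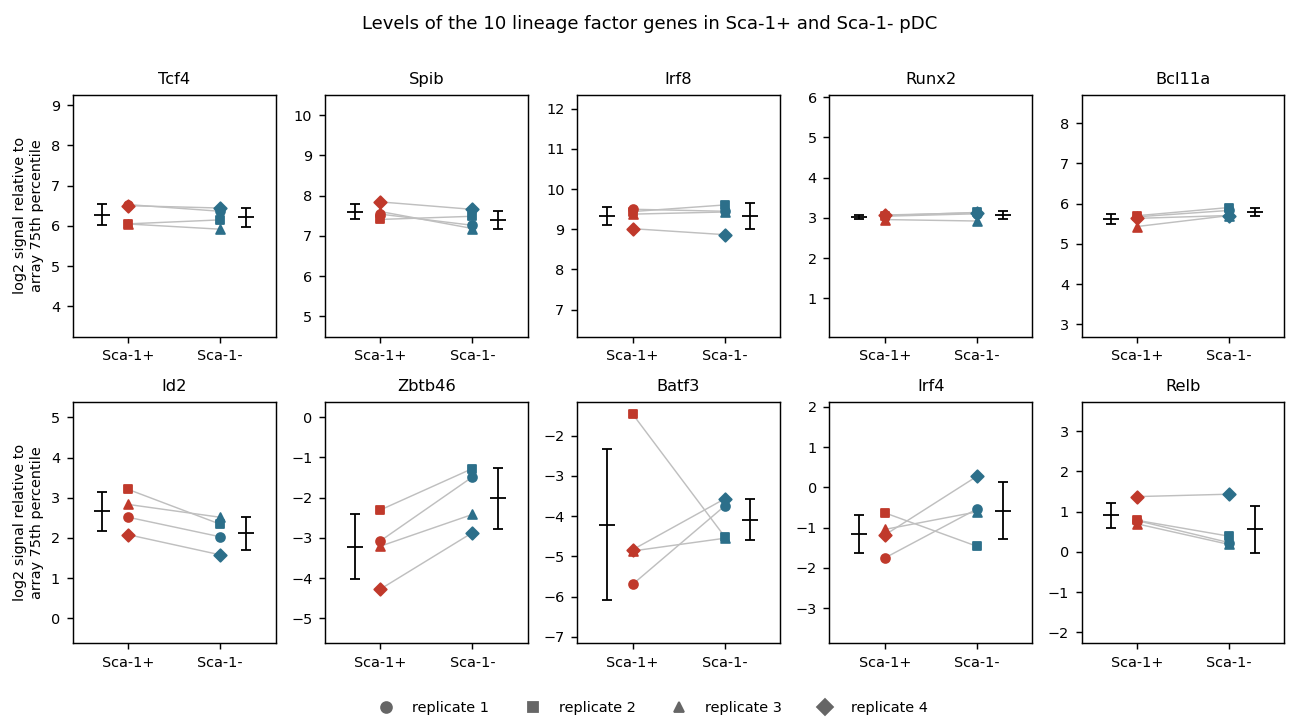
Levels of the main probe of each of the 10 genes in the 4 Sca-1+ samples (red, left) and the 4 Sca-1- samples (blue, right), as log2 signal relative to the array's 75th percentile. Grey lines join samples of 1 slide, symbols give the replicate number, bars give the mean ± SD, and each panel spans the same number of log2 units. Id2 lies higher and Zbtb46 lower in the Sca-1+ sample of every slide, while Irf8 and Runx2 are close to level.

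Id2 and Zbtb46 carried the calls, so the first 30 bases of their 60-base array probes are shown, 5′ to 3′ and in lower case throughout, with mm9 positions of the whole probe. The Id2 probe lies at chr12:25778904-25778963 on the minus strand. The main Zbtb46 probe lies at chr2:181146404-181146463 and the other at chr2:181145799-181145858, both on the minus strand and 605 bases apart. Whether these probes lie in coding exons or untranslated regions was not analysed here.
Id2: tgagtgaaccttgtggactctttaattaga
Zbtb46 main probe: tgctcggtgatgatggctcacttctgttcg
Zbtb46 other probe: gtcacatgtgcgtttttaaaaaggagttga

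Id2 had levels of 2.52, 3.21, 2.84 and 2.08 in Sca-1+ replicates 1 to 4, against 2.03, 2.34, 2.52 and 1.58 in Sca-1- replicates 1 to 4. The Sca-1+ sample was the higher one on each slide, but the groups overlapped, because replicate 4 was the lowest of its group in both. The difference was 0.54 ± 0.29 (SE), a 1.46-fold higher mean in Sca-1+ pDC with a 95% interval of -0.11 to 1.20, and did not pass the unpaired limma test (adjusted p = 0.719). Within slides 1 to 4 it was 0.49, 0.87, 0.32 and 0.50. With the slide as a block the same difference had an interval of 0.27 to 0.81 and passed narrowly (limma adjusted p = 0.0485). That call was lost when any 1 slide was left out (limma adjusted p = 0.0942 to 0.138). Still blocked by slide, it was also lost after quantile normalization (0.0538), in the authors' value table (0.0552), with every probe tested on its own (0.0570) and without the filter on dim probes (0.222).

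Zbtb46 had the largest difference among the 9 tested members by their main probes. Its main probe had levels of -3.08, -2.31, -3.21 and -4.27 in Sca-1+ replicates 1 to 4, against -1.49, -1.28, -2.42 and -2.87 in Sca-1- replicates 1 to 4. The Sca-1+ sample was the lower one on each slide and the probe was well above background on all 8 arrays, yet the groups overlapped. The difference was -1.20 ± 0.48 (SE), 2.30-fold lower in Sca-1+ pDC, with a 95% interval of -2.30 to -0.11. It did not pass the unpaired test (limma adjusted p = 0.470), and over slides 1 to 4 it was -1.59, -1.03, -0.79 and -1.40. With the slide as a block it passed (limma adjusted p = 0.0131), and it still did when any 1 slide was left out (0.0350 to 0.0466), but not without the filter on dim probes (0.0788). Normexp background correction, whose offset of 50 makes differences of dim probes smaller, gave -0.39.

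The other Zbtb46 probe was detected on 0 of 4 Sca-1+ arrays and on 4 of 4 Sca-1- arrays. Its measured levels were -4.73, -3.88, -5.68 and -6.83 in Sca-1+ replicates 1 to 4, against -2.15, -3.00, -3.51 and -3.44 in Sca-1- replicates 1 to 4. The measured values of the groups did not overlap, as for 6.94% of tested genes by their main probes (1.91% in the higher and 5.03% in the lower direction). Since the Sca-1+ values are not above background they give only a limit. It sets the Sca-1- mean of -3.03 against the lowest detectable signal of the Sca-1+ arrays, or the probe's own signal where higher. By these means the signal of this probe was at least 1.93-fold lower in Sca-1+ pDC. The limit is a single value with no interval, and it did not hold with normexp, as given below. In the limma fit with every probe on its own, the measured means were -5.28 in Sca-1+ and -3.03 in Sca-1- pDC, with an adjusted p of 0.184 unpaired and 0.0391 blocked. The probe entered that fit only through its Sca-1- detections, so these p-values add no support to the call of the main probe, and the blocked one missed the threshold without slide 1, 3 or 4. With normexp the groups of this probe overlapped, and their difference of -0.36 was smaller in size than the limit above.

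**Figure D2:**
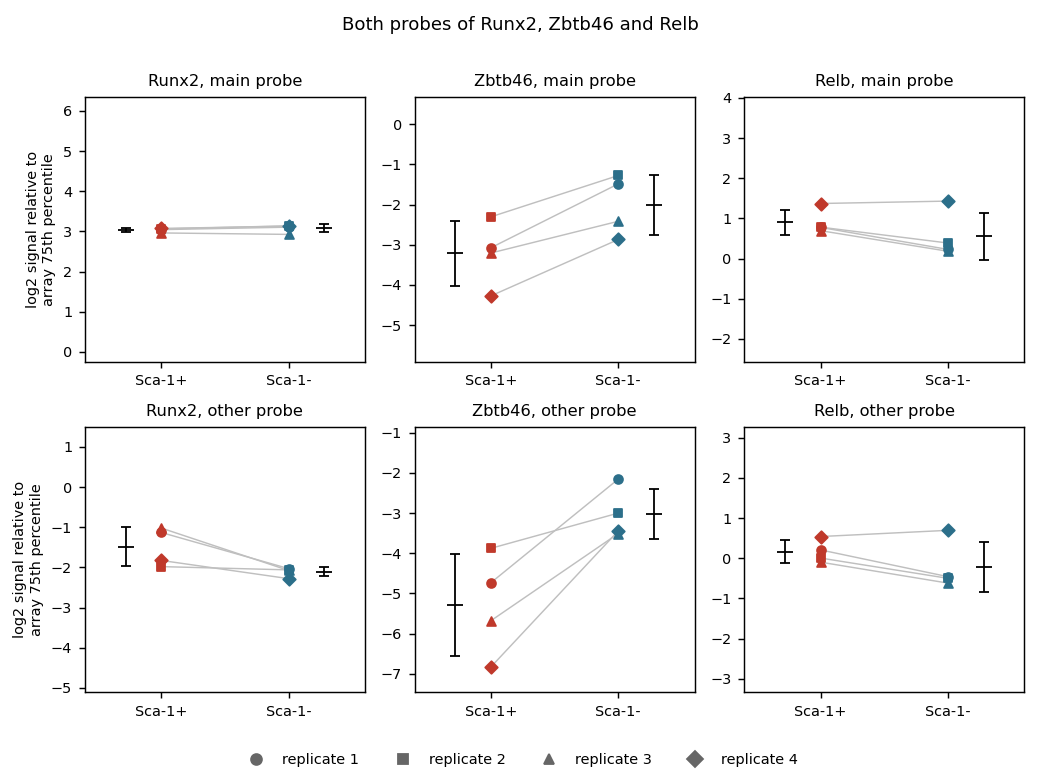
Levels of both probes of Runx2, Zbtb46 and Relb by sample, as log2 signal relative to the array's 75th percentile, with Sca-1+ left (red) and Sca-1- right (blue). Lines join samples of 1 slide and bars give the mean ± SD. The main Runx2 probe is nearly level while its other probe lies higher in Sca-1+ samples, and the Sca-1+ values of the other Zbtb46 probe are below the detection mark.

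The 250 bases before the annotated starts of Id2 and Zbtb46 are shown because E-box sequences are what Tcf4 binds and Id2 counteracts. They are RefSeq sequences in build GRCm38.p6, found for 8 of the 10 members, at chr12:25096093-25096342 for Id2 and chr2:181424389-181424638 for Zbtb46, both on the minus strand. Capitals mark the E-box motif CANNTG, which reads the same on either strand: 1 match for Id2 and 5 for Zbtb46. Of all 32851 promoter windows of this length 66.2% held at least 1 match, and the median was 1 match. A match here is a description of letters only. The Zbtb46 window ends in a pyrimidine-rich run followed by AG, as introns do, so it may lie before an internal exon and not be a promoter. Whether either annotated start is used in these cells was not tested.
Id2 promoter: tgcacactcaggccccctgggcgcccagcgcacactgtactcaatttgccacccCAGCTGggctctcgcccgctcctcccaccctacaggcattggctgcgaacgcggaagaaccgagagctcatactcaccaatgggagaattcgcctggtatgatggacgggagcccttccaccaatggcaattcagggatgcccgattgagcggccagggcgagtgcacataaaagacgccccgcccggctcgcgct
Zbtb46 promoter: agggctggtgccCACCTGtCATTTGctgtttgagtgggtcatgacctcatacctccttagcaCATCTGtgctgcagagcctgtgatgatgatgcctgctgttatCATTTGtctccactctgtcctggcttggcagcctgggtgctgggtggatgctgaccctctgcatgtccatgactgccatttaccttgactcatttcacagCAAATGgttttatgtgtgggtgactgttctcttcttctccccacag

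Tcf4, the E protein that maintains pDC identity, gave levels of 6.53, 6.05, 6.05 and 6.50 in Sca-1+ replicates 1 to 4, against 6.36, 6.15, 5.92 and 6.44 in Sca-1- replicates 1 to 4. The groups overlapped fully, with both sets spread over about the same range. The difference was 0.064 ± 0.18 (SE, 95% interval -0.36 to 0.48), which did not pass (limma adjusted p = 1.00 unpaired and 0.675 blocked). The other Tcf4 probe, 4719 bases away, differed by 0.11, also without passing (limma adjusted p = 1.00 unpaired and 0.434 blocked). It was higher in the Sca-1+ sample of all 4 slides, as were 18.4% of tested genes by their main probes. As a ratio, the interval of the main probe runs from 0.782 to 1.40 times the Sca-1- mean.

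Spib and Irf8 act early in pDC development, Spib as an ETS factor needed by pDC and Irf8 as a factor shared by pDC and the Batf3-dependent cDC. Spib had 7.54, 7.41, 7.60 and 7.84 in Sca-1+ replicates 1 to 4, against 7.26, 7.49, 7.18 and 7.66 in Sca-1- replicates 1 to 4, a difference of 0.20 ± 0.16 (SE, 95% interval -0.16 to 0.56; limma adjusted p = 0.949). Irf8 had 9.50, 9.44, 9.38 and 9.01 in Sca-1+ and 9.45, 9.60, 9.43 and 8.87 in Sca-1- replicates 1 to 4, a difference of -0.0048 ± 0.19 (SE, 95% interval -0.45 to 0.44; limma adjusted p = 1.00). Spib was higher in the Sca-1+ sample of 3 slides and Irf8 of 2, and the groups overlapped for both. With the slide as a block neither passed (limma adjusted p = 0.302 for Spib and 0.979 for Irf8).

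Bcl11a encodes a zinc-finger factor that acts with Tcf4 in the pDC programme. Its main probe had 5.67, 5.70, 5.43 and 5.64 in Sca-1+ replicates 1 to 4, against 5.83, 5.91, 5.71 and 5.71 in Sca-1- replicates 1 to 4. The Sca-1+ sample was lower on all 4 slides, and the groups were apart by only 0.0037, a gap that closed to an overlap under each of the other scalings tried. Groups were apart for 6.94% of all tested genes (5.03% in the lower direction). The Bcl11a difference was -0.18 ± 0.12 (SE, 95% interval -0.46 to 0.10) and did not pass (limma adjusted p = 0.889 unpaired and 0.228 blocked by slide). The other Bcl11a probe was well above background on 1 of 8 arrays, a Sca-1- array, and gives no difference.

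Runx2 supports the release of pDC from bone marrow, and it is the gene whose probes disagreed most among those detected on all arrays. The first 30 bases of both are given because they sample places far apart in the gene, 206203 bases from each other on the minus strand (mm9), the main one at chr17:44744925-44744984 and the other one further 5′ at chr17:44951128-44951187.
Runx2 main probe: gcagcacgctattaaatccaaatttgccta
Runx2 other probe: aaaggagggactatggcgtcaaacagcctc

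The main Runx2 probe had 3.04, 3.06, 2.96 and 3.07 in Sca-1+ replicates 1 to 4, against 3.10, 3.14, 2.92 and 3.13 in Sca-1- replicates 1 to 4, a difference of -0.040 ± 0.11 (SE, 95% interval -0.30 to 0.22; limma adjusted p = 1.00 unpaired and 0.774 blocked by slide). The 5′ probe had -1.13, -1.98, -1.02 and -1.83 in Sca-1+ replicates 1 to 4, against -2.03, -2.06, -2.08 and -2.28 in Sca-1- replicates 1 to 4. On the 5′ probe every Sca-1+ sample lay above every Sca-1- sample, by a gap of 0.050, whereas the main probe had overlapping groups. Groups did not overlap for 6.94% of tested genes by their main probes (1.91% in the higher direction). The 5′ difference was 0.62 ± 0.24 (SE, 95% interval 0.085 to 1.16), with slide values of 0.90, 0.081, 1.06 and 0.45, and it did not pass (limma adjusted p = 0.454 unpaired and 0.116 blocked by slide). With quantile normalization, normexp and the authors' table the groups of the 5′ probe overlapped, and with normexp the difference was 0.33 and 3 of 4 slides were higher. The change of the 5′ probe minus that of the main probe was 0.96, 0.16, 1.02 and 0.51 on slides 1 to 4.

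**Figure D3:**
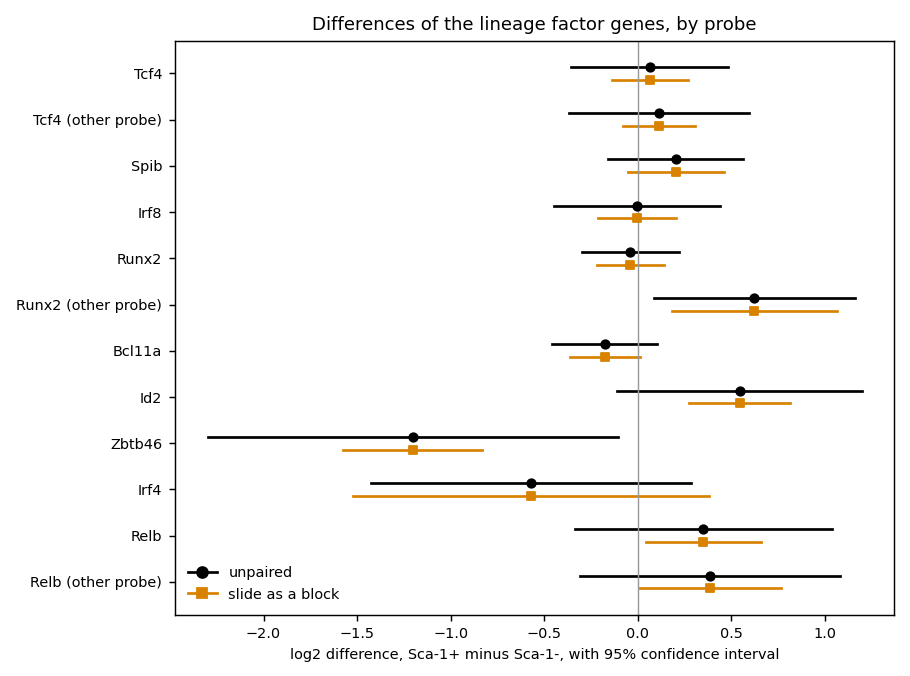
Differences between Sca-1+ and Sca-1- pDC (log2, Sca-1+ minus Sca-1-) with 95% confidence intervals for each tested probe, unpaired (black circles) and with the slide as a block (orange squares). The other Zbtb46 probe, which was not above background in Sca-1+ samples, is not drawn. The blocked intervals of Id2 and Zbtb46 exclude 0, as do those of both Relb probes and the other Runx2 probe, which did not pass after adjustment.

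Of the remaining cDC factors, Batf3, an AP-1 family factor of the cross-presenting cDC subset, was near the detection limit. Its probe was detected on 1 of 4 Sca-1+ and 2 of 4 Sca-1- arrays, too few for a test. Its measured levels were -5.69, -1.46, -4.86 and -4.83 in Sca-1+ replicates 1 to 4, against -3.75, -4.51, -4.55 and -3.57 in Sca-1- replicates 1 to 4. Sca-1+ replicate 2 stood above the other 7 samples, and no difference between the groups is given.

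Irf4, a factor of the other main cDC subset and of activated dendritic cells, had -1.76, -0.63, -1.05 and -1.18 in Sca-1+ replicates 1 to 4, against -0.54, -1.46, -0.61 and 0.27 in Sca-1- replicates 1 to 4. The Sca-1+ sample was the lower on 3 slides and the higher on slide 2, and the groups overlapped. The difference of -0.57 ± 0.37 (SE, 95% interval -1.42 to 0.28) did not pass (limma adjusted p = 0.857 unpaired and 0.418 blocked by slide).

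Relb, an NF-kB subunit of the alternative pathway that is needed for some cDC, had 0.78, 0.78, 0.70 and 1.37 in Sca-1+ replicates 1 to 4, against 0.23, 0.39, 0.18 and 1.43 in Sca-1- replicates 1 to 4. Replicate 4 was the highest sample of both groups, and on the other 3 slides the Sca-1+ sample was higher by 0.55, 0.40 and 0.51, while on slide 4 the difference was -0.060. The difference over all slides was 0.35 ± 0.30 (SE, 95% interval -0.34 to 1.04; limma adjusted p = 0.985 unpaired and 0.164 blocked by slide). Without slide 4 it was 0.49, with a limma adjusted p of 0.0568 unpaired and 0.0783 blocked by slide. That omission raised the unpaired calls over all genes from 339 to 879. Without slide 1, 2 or 3 the Relb difference was 0.28, 0.33 and 0.29, not called in either fit. The other Relb probe shares 9 bases with the main one and is not independent of it, with a difference of 0.38.

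**Figure D4:**
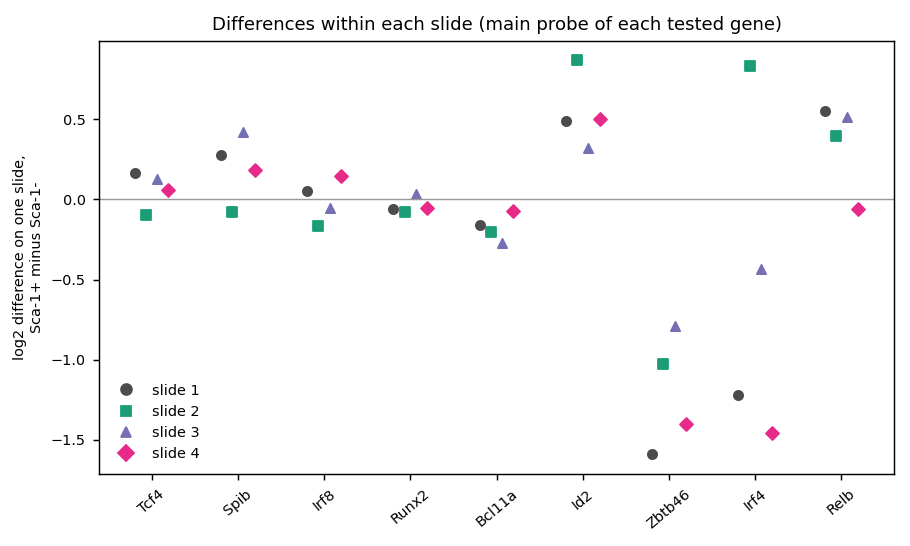
Difference within each slide (log2, Sca-1+ minus Sca-1-) for the main probe of each of the 9 tested genes, 1 symbol per slide. Id2 is above 0 and Zbtb46 and Bcl11a are below 0 on all 4 slides, and Irf4 spans -1.46 to 0.83.

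Over the main probes of the 9 tested genes, 3 had the same sign on all 4 slides, Id2 higher and Bcl11a and Zbtb46 lower, as did 36.2% of all tested genes (18.4% higher and 17.8% lower). The change of Id2 minus that of another member describes how the factors moved against each other within an array. It was 1.75 for Zbtb46, 1.11 for Irf4, 0.72 for Bcl11a, 0.58 for Runx2, 0.55 for Irf8, 0.48 for Tcf4, 0.34 for Spib and 0.19 for Relb. Of these 8 it was positive on every slide for all but Spib, which gave -0.10 on slide 3, and Relb, which gave -0.062 on slide 1 and -0.19 on slide 3. On the levels used here, Id2 alone of the 9 genes was higher on every slide. Tcf4 and Spib were higher on every slide too with quantile normalization and in the authors' value table, as was Spib with normexp. Most signs of the changes set against Id2 follow from the Id2 difference and add no support to its call.

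Among related families, none of the 7 lists of factors had a gene called unpaired. Blocked calls below stand beside 6.22% of all tested genes (2.1% higher and 4.12% lower). Of 5 tested E and Id protein genes, the blocked fit called Id2 and Id3 higher in Sca-1+ pDC. Id3, encoding a second inhibitor of E proteins, had 2.13, 1.98, 1.79 and 3.05 in Sca-1+ replicates 1 to 4, against 0.98, 0.92, 0.72 and 2.45 in Sca-1- replicates 1 to 4, a difference of 0.97 ± 0.42 (SE; limma adjusted p = 0.559 unpaired and 0.0113 blocked). Every slide was higher in Sca-1+ pDC, by 1.15, 1.05, 1.07 and 0.60, although replicate 4 of the Sca-1- group exceeded 3 of the Sca-1+ samples. The blocked call of Id3 held when 1 of the 4 slides was left out and was lost for the others (limma adjusted p = 0.0107 to 0.0885). The E protein genes Tcf3 and Tcf12 differed by -0.19 and 0.054 and were not called in either fit. Id1 was detected on 0 of 4 Sca-1+ and 2 of 4 Sca-1- arrays, too few for a test, and Id4 was detected on no array.

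The IRF family had 9 tested genes, and the blocked fit called Irf7, the interferon regulator that pDC hold at a high level. Irf7 had 4.89, 5.50, 4.61 and 5.00 in Sca-1+ replicates 1 to 4, against 4.08, 4.37, 3.57 and 4.23 in Sca-1- replicates 1 to 4. Every Sca-1+ sample lay above every Sca-1- sample, as for 1.91% of tested genes. The Irf7 difference was 0.94 ± 0.24 (SE, limma adjusted p = 0.143 unpaired and 0.00606 blocked). The blocked call held in 3 of 4 slide omissions (limma adjusted p = 0.0198 to 0.0580). Irf5 and Irf3 differed by 0.23 and 0.097 and were not called. None of the 8 NF-kB genes, 4 BATF and JUN genes, 4 Runx family genes and 2 Spi subfamily genes was called in either fit. Cbfb, the partner subunit of Runx proteins, was lower in the Sca-1+ sample of all 4 slides, as were 17.8% of all tested genes. Its difference was -0.37 (limma adjusted p = 0.504 unpaired and 0.0781 blocked). Spi1, encoding PU.1, differed by -0.36 (limma adjusted p = 0.698 unpaired and 0.199 blocked).

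**Figure D5:**
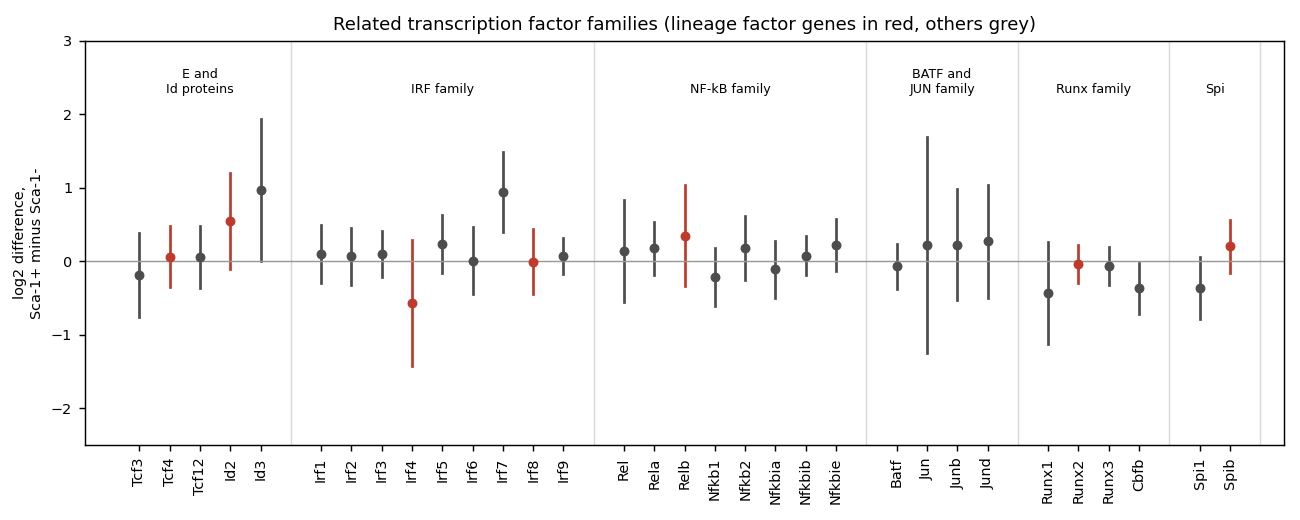
Differences (log2, Sca-1+ minus Sca-1-, with 95% confidence intervals from the unpaired fit) of the tested genes of 6 related families, member genes in red and others in grey. Irf7 and Id3 have the largest positive differences of those drawn, and most intervals span 0.

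Among 24 tested genes of 28 other factors of dendritic cell development, the unpaired fit called 0 and the blocked fit called 2. Over all tested genes the blocked fit called 6.22%. Bach2, a lymphoid repressor, had -1.14, -1.63, -1.72 and -1.46 in Sca-1+ replicates 1 to 4, against -0.19, -0.60, -0.80 and -0.87 in Sca-1- replicates 1 to 4, a difference of -0.87 (limma adjusted p = 0.0904 unpaired and 0.0101 blocked). Ets1, an ETS factor of lymphoid cells, differed by 0.81 (limma adjusted p = 0.570 unpaired and 0.0283 blocked). Neither changed sign between slides, and the blocked call held in 2 of 4 slide omissions for Bach2 and in 1 of 4 for Ets1. Gfi1, Nfil3 and Klf4 differed by 1.19, 0.48 and -1.09 and were called in neither fit, Gfi1 being detected on 3 of 4 Sca-1+ and 1 of 4 Sca-1- arrays.

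Of 19 genes reported to be regulated by Tcf4, Bcl11a or Runx2 in pDC, all 19 were tested. The unpaired fit called 1 of them, beside 1.71% of all tested genes. Cxcr4, the receptor that holds cells in bone marrow, had 0.33, 0.25, 0.44 and 0.63 in Sca-1+ replicates 1 to 4, against 1.52, 1.69, 1.30 and 1.54 in Sca-1- replicates 1 to 4. All Sca-1+ samples lay below all Sca-1- samples, as for 5.03% of tested genes. The Cxcr4 difference was -1.10 ± 0.14 (SE, 2.14-fold lower, limma adjusted p = 0.00774). It stayed called in 9 of 12 omissions of 1 array or 1 slide, the highest limma adjusted p being 0.129. Among the genes that the blocked fit called higher were Irf7, Ccr9 and Itgae, with differences of 0.94, 0.55 and 0.97. Ccr9, a homing receptor, lost the blocked call with any slide left out. The list includes Spib, Irf8, Runx2 and Bcl11a themselves, and its median difference was 0.25, beside 0.029 over all tested genes. Genes raised and genes lowered by these factors were not listed apart, so the median is no measure of factor activity.

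Marker lists were read from the same fits, which called 1.71% of all tested genes unpaired and 6.22% blocked (2.1% higher and 4.12% lower). Of 15 tested pDC markers, 0 were called unpaired and 3 were higher in the blocked fit (Ccr9, Tlr7 and Lag3). Of 11 tested cDC markers, 0 were called unpaired, while Sirpa and Itgae were higher and Cd24a lower in the blocked fit. Of these blocked calls, those of Ccr9 and Sirpa were lost with any slide left out, those of Tlr7, Lag3 and Cd24a held in 1 of 4 slide omissions, and that of Itgae held in 2. The lists of B cell, T and NK cell, neutrophil, basophil and mast cell, and early progenitor markers, with 3, 3, 5, 4 and 5 tested genes, had 0 calls in either limma fit. All 5 tested progenitor genes were lower in mean level in Sca-1+ pDC, with a median difference of -0.40. The cycling list moved most: 7 of its 10 genes were called lower in Sca-1+ pDC unpaired and 8 blocked, with a median difference of -1.97 and a summed signal of 51.4 to 63.9 in Sca-1+ and 127 to 185 in Sca-1- samples. With 1 array left out 6 or 7 were called, but without slide 1, 2 or 3 the unpaired test called 0, 0 and 1, and without slide 4 it called 8. With the slide as a block 7 were called whichever slide was left out. The part of cycling in the differences of Id2 and Zbtb46 was not tested. The monocyte and macrophage list had 4 tested genes, with a median difference of -0.30. It had 0 calls unpaired and 1 in the blocked fit, Csf1r. That gene was lower in Sca-1+ pDC (log2 difference -1.19, limma adjusted p = 0.171 unpaired and 0.00637 blocked).

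Genes whose profile over the 8 arrays was nearest to a member were taken from 11188 candidates by the smallest root mean square difference of mean-centred levels, with clone and locus names passed over after they had come up. For Id2 they were Rundc3a (0.139) and Car7 (0.143), against 0.472 for the spread of Id2 itself. For Zbtb46 they were Tmem132a (0.273) and Snx21 (0.276), against a spread of 0.907, and for Irf4 Eri2 (0.277) and Agpat4 (0.280), against 0.593. For Relb they were Enpp4 (0.0887) and Gbp9 (0.0921), against 0.444. The nearest to Tcf4 were Panx1 and Paqr5, to Spib Slc50a1 and Nudt13, to Irf8 Mpdu1 and Rps6, to Runx2 Agap3 and Csnk2b, and to Bcl11a Ttc9c and Psma5.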

How the data were processed

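Each of 8 one-colour arrays measured 1 sorted sample. Per the file headers, the authors extracted spot intensity on a linear scale with Agilent Feature Extraction 10.7.3.1, background-corrected by that program, and probe positions are in mm9. A value table deposited by the authors for the whole series is on the log2 scale. How it was normalized was not given in the sources used here.

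Control and outlier spots (105 to 162 per array) were left out and spots of a probe averaged on the log2 scale. Each array's 75th percentile over averaged probes was subtracted. That percentile was first taken over spots, which called 314 genes; the percentile over probes, calling 339, was adopted after both counts had been seen, because an earlier analysis of these data had used it.

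A gene's brightest probe by mean over all arrays stood for it, and the gene was tested if well above background on at least 4 of 8 arrays. Groups, from the sample titles, were compared with limma (version 3.58.1, R 4.3.3; two-sided, unpaired, Benjamini-Hochberg over 19818 genes, threshold 0.05), with version 1.17.8 of data.table. Figures used pandas 2.3.3, numpy 2.4.6 and matplotlib 3.10.9 under Python 3.11.15. The fit was also run on simulated arrays with known changes. These had normal noise and no slide set apart as slide 4 was here, so that run gives no error rate for these data.

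Members, lists and tests were chosen with earlier results of these data known. Named genes are the members, and of each other factor list those called in either fit or with the smallest p, at most 3 of those not called. Clec9a and Siglech were added after their values were seen. One listed gene is not reported here. Same-numbered samples shared a slide, per the file headers. Their deviations from the group means correlated at 0.44, 0.43, 0.64 and 0.89 for replicates 1 to 4, each above the 0.1 set for pairing. All differently numbered pairs among replicates 1 to 3 were above 0.1 too (0.121 to 0.536), so that limit does not set the slide pairs apart there. The highest of these, Sca-1+ replicate 1 with Sca-1- replicate 2, exceeded the values of both own pairs. In all, 6 of 8 samples correlated best with their own number.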

Additional observations from a re-analysis of the deposited data

Results flagged for a closer look

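In groups of 4 samples, 4 of 30 sets of a probe and a group had a sample far from the other 3, where chance gives about 1 in 20. Relb had 1.37 in Sca-1+ replicate 4 and 1.43 in Sca-1- replicate 4 on its main probe, and 0.69 in Sca-1- replicate 4 on the other probe, each above the 3 other samples of its group. Runx2 had 2.92 in Sca-1- replicate 3 on its main probe, below the 3 others. The slide of replicate 4 was scanned on another day; its part in the Relb values was not tested.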

How the results depend on the processing

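Across 34 alternatives, 22 of them planned, Spib, Bcl11a, Id2, Zbtb46, Irf4 and Relb kept the sign of their difference. Tcf4 reversed in 4, Irf8 in 12 and Runx2 in 1, none of them called. Tcf4 was -0.027 with array weights. Irf8 was 0.0042 with scaling on detected probes, with or without the replicate block, and 0.014 with the percentile over spots, with or without the block. Runx2 was 0.29 as the mean over its probes. With 1 array left out Tcf4 ranged from -0.036 to 0.14 and Irf8 from -0.16 to 0.10, with 163 to 463 genes called and 0 members. Without replicate 2 or 3 in both groups Irf8 was 0.048 and 0.011 in either fit. Without replicates 1 to 4 in both groups 1, 2, 29 and 879 genes were called unpaired, and 429, 556, 292 and 941 with the replicate block.

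The replicate block called 1233 genes and 2 members. Without any 1 slide it called 1 member, Zbtb46. Blocked, 1 member was called with quantile normalization (1261 genes), with the authors' table (1244) and with every probe on its own (1377). Blocked, 2 members were called with scaling on detected probes (1239), with normexp (2130) and with the percentile over spots (1288). Blocked with no filter on dim probes, 0 members were called. Unpaired, array weights called 1445 genes and no filter on dim probes 182. Where a setting moved a value, the cause was not tested. Signal near background limits Zbtb46 and Batf3, and 4 arrays per group limit all differences. The percentile over probes, used for the reported values, was chosen after seeing the results of both percentiles, and the blocked alternatives other than the plain block were also chosen after seeing the data.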
